A study of Rattus norvegicus with 8 samples.

Results

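The genes described here are 10 markers of the contractile and supporting cells of the kidney interstitium and vessel wall: Acta2, Tagln, Myh11, Cnn1, Des, Vim, Pdgfra, Pdgfrb, Cspg4 and Fap. They were chosen by name, and every probe whose RefSeq accession maps to one of these symbols was taken. This gave 11 probes, at least 1 for each of the 10 genes, and 9 of the 10 genes entered the test over 21416 genes or unnamed transcripts. Fap was measured but was too dim for that test.

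Each of the 8 samples was total RNA from kidney of a male rat of the SD strain aged 10 weeks, run on its own single-colour Agilent array. The animals of the allopurinol group received APL at 150 mg/kg for 4 weeks, and the controls received 0.5% methylcellulose, a vehicle, for 4 weeks, with 4 samples in each group. APL is read here as allopurinol, a xanthine oxidase inhibitor, because that drug is in the title of the series, which is about renal fibrosis. Kidney is the tissue label, although tubules are what the title names. The labels do not state that the 4 replicates are separate animals, so the p-values measure the spread between these samples, which may be technical.

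Kidney fibrosis is a build-up of scar matrix between the tubules. Much of that matrix is made by myofibroblasts, cells that take up contractile proteins of smooth muscle, Acta2 above all, and that arise largely from resident pericytes and fibroblasts carrying platelet-derived growth factor (PDGF) receptors. Vascular smooth muscle and the mesangial cells of the glomerulus share many of these transcripts, and Vim is also carried by endothelium, leukocytes, podocytes and injured tubule cells, so no member marks 1 cell type in whole-kidney RNA.

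The allopurinol arrays were brighter as a whole. The processed signal had a 75th percentile of 455 ± 53 on the allopurinol arrays and of 291 ± 18 on the control arrays (SD, n = 4 each, exact two-sided permutation p = 0.0286, the smallest that 70 splits allow). Levels are therefore given as log2 of the signal over the array's own 75th percentile, called log2 level below, and fold changes are allopurinol over control on that scale. A level of 0 is the 75th percentile itself, and levels of different probes are not set against each other. Arrays correlated across genes at 0.919 to 0.961 within allopurinol, 0.897 to 0.937 within control and 0.802 to 0.858 between the groups. In each group replicates 1 and 2 shared 1 slide and replicates 3 and 4 another. The errors after a fold change are limma's moderated standard errors with n = 4 in each group, and a gene is called at a Benjamini-Hochberg adjusted p under 0.05 over all genes tested.

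The promoter of Acta2 is shown because the CArG box, the letters bound by serum response factor, is the best known control element of smooth muscle genes, and that of Vim because Vim changed most among the members. Both are RefSeq sequences of build GRCr8 from 250 bases before to 50 bases after the annotated start, Acta2 at chr1:241172454-241172753, minus strand and Vim at chr17:81577011-81577310, plus strand. Capitals mark CArG boxes with 1 of the 6 inner A or T letters left free, a looser form added after the strict form was found in none of the 7 members with a promoter sequence in that table.
Acta2: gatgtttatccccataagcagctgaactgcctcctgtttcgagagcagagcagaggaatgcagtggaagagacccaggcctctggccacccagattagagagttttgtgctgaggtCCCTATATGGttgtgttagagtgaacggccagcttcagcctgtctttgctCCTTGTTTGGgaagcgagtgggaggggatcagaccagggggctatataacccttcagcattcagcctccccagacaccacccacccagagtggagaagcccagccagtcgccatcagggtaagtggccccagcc
Vim: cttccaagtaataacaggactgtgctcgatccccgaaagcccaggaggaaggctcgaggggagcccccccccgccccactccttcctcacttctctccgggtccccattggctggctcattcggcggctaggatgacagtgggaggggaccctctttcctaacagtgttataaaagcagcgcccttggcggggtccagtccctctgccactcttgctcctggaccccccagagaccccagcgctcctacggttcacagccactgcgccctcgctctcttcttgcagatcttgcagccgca
The Acta2 window held 2 such boxes, CCCTATATGG at 134 to 125 bases and CCTTGTTTGG at 84 to 75 bases before the start. Of 33469 promoter windows of that length, 9.42% held the looser box and 1.64% the strict one. The letters CATTCC, searched on both strands like all motifs here, stood in the Acta2 window alone among the 7 members, against 14.2% of all windows. A TATAAA stood in the Vim window (14.2% of all windows), and GGGCGG in the windows of Vim, Des and Cspg4 (33.1%). A match is a description of the letters and not of binding. The Pdgfra, Cnn1 and Fap windows held none of these letters, and Tagln, Myh11 and Pdgfrb were not matched to a promoter.

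Vim and Cspg4 rose, Pdgfra fell, and the contractile genes Acta2, Tagln, Myh11 and Cnn1 as well as Des and Pdgfrb did not pass the test. In 20 alternative fits, with other settings or 1 array left out, Vim passed in 20, Pdgfra in 13 and Cspg4 in 8. Of the 9 tested members 2 were called higher, against 11.9% of all genes, and 1 was called lower, against 11.5%. In both directions together that is 3 of 9, where 23.5% of all genes were called. The median log2 fold change of the 9 members was 0.86, against -0.03 over all genes tested, and 8 of the 9 values were positive. The groups did not overlap for 2 members, Vim and Pdgfra, where 29.9% of all genes had groups without overlap. Vim was wholly above the controls, like 14.0% of all genes, and Pdgfra wholly below them, like 15.9%.

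**Figure D1:**
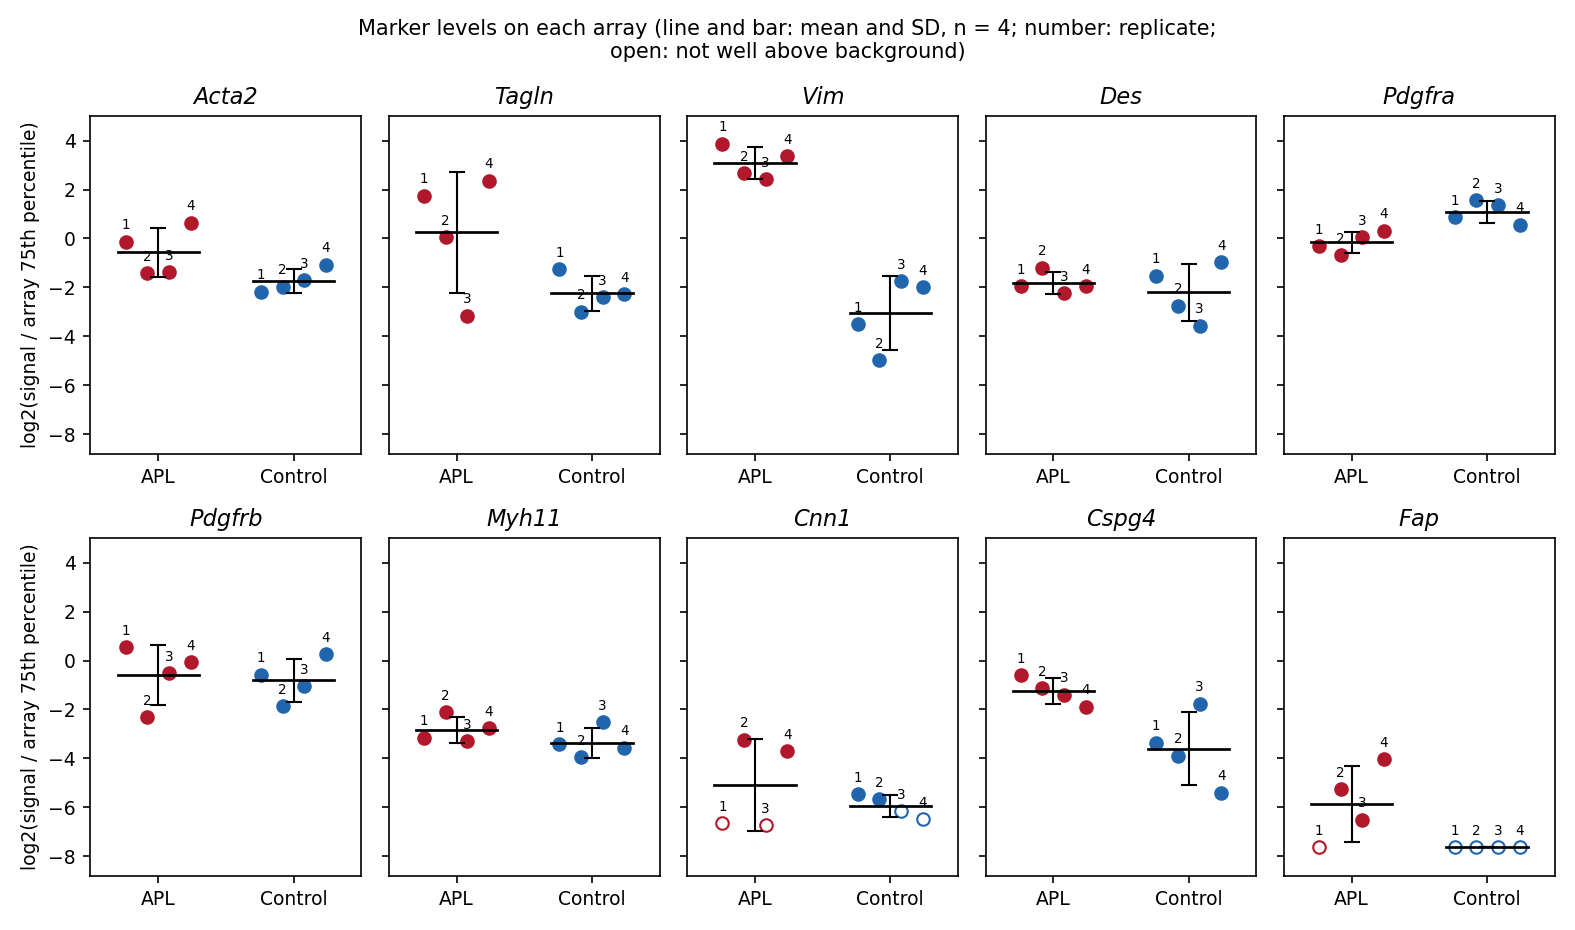
Log2 level (log2 of signal over the array's 75th percentile, vertical axis) of the 10 genes on each array, allopurinol (APL) left of control, with the replicate number above each point, the mean and SD (n = 4) in black, and open points where the probe was not well above background. Vim sits between 2.43 and 3.88 on the allopurinol arrays and at or below -1.75 on the control arrays, whereas Acta2 and Tagln spread widely among the allopurinol arrays.

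Among the contractile genes, Acta2, which encodes smooth muscle alpha-actin, the usual mark of a myofibroblast, had log2 levels of -0.13, -1.41, -1.38 and 0.65 in allopurinol replicates 1 to 4, against -2.19, -1.97, -1.71 and -1.06 in control replicates 1 to 4. Allopurinol replicates 1 and 4 lay above all controls, while replicates 2 and 3 lay below the highest control, replicate 4. The log2 fold change was 1.17 ± 0.51, with a 95% interval of -0.01 to 2.34 (limma, adjusted p = 0.137, unadjusted p = 0.0508). Within slides it was 1.31 (slide 1) and 1.02 (slide 2), and a fit with the slide as a block gave an adjusted p of 0.142. Without scaling between arrays, which leaves the overall brightness in, it was 1.80 with an adjusted p of 0.0367, but there the median of all genes stood at 0.60. With normexp and quantile normalization it was 0.66, without allopurinol replicate 4 it was 0.76, and neither passed (adjusted p = 0.226 and 0.271).

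Tagln, which encodes transgelin, an actin-binding protein of smooth muscle, had the widest spread among the allopurinol arrays of the member probes. Its log2 levels were 1.76, 0.05, -3.15 and 2.36 in allopurinol replicates 1 to 4, against -1.27, -2.99, -2.40 and -2.28 in control replicates 1 to 4. Allopurinol replicates 1, 2 and 4 were above every control, and replicate 3 was the lowest of all 8 arrays. The SD among the allopurinol arrays, 2.47, was larger than that of 99.4% of the genes tested, against 0.715 and 64.3% among the controls. The log2 fold change was 2.49 ± 1.12 (95% interval -0.10 to 5.08, adjusted p = 0.149), 3.03 on slide 1 and 1.95 on slide 2, with an adjusted p of 0.172 with the slide as a block. Leaving out allopurinol replicate 3 raised it to 3.62 with an adjusted p of 0.0093, and this was the only 1 of the 20 alternatives in which Tagln passed.

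The probe used for Myh11, the myosin heavy chain of differentiated smooth muscle, gave log2 levels of -3.15, -2.11, -3.30 and -2.76 in allopurinol replicates 1 to 4, against -3.43, -3.95, -2.52 and -3.56 in control replicates 1 to 4. The groups overlapped, with a log2 fold change of 0.54 ± 0.38 (95% interval -0.34 to 1.42, adjusted p = 0.344), 1.06 on slide 1 and 0.01 on slide 2 (adjusted p = 0.376 with the slide as a block). Myh11 was the only member with a second probe, and the probes disagreed in direction. The second probe had -5.78, -2.92, -7.64 and -3.06 in allopurinol replicates 1 to 4, against -2.22, -5.72, 0.35 and -5.36 in control replicates 1 to 4, a log2 fold change of -1.61 ± 1.59 (adjusted p = 0.496 in the fit over all kept probes). It was well above background on 3 arrays of each group, and the mean of the 2 probes gave -0.54. Without scaling between arrays the probe used gave 1.17 with an adjusted p of 0.0303.

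Cnn1, which encodes calponin, an inhibitor of actomyosin activity in smooth muscle, was well above background on 2 arrays of each group. It was well above background in allopurinol replicates 2 and 4, at -3.25 and -3.72, and not in replicates 1 and 3, at -6.65 and -6.74. The control replicates 1 to 4 had -5.46, -5.67, -6.17 and -6.49, and only replicates 1 and 2 were well above background. The 2 allopurinol arrays in which Cnn1 was well above background lay above all controls, and the values not well above background have no order. The log2 fold change was 0.86 ± 0.85 (95% interval -1.09 to 2.81, adjusted p = 0.492), 0.62 on slide 1 and 1.1 on slide 2 (adjusted p = 0.513 with the slide as a block). It was 0.25 without allopurinol replicate 2, 0.40 without replicate 4 and 0.15 with normexp and quantile normalization, and 1.41 without replicate 3.

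The same allopurinol arrays did not lead for every contractile gene. Replicates 1 and 4 held the 2 highest allopurinol values of Acta2, Tagln, Vim and Pdgfrb, 4 of the 9 tested members, as they did for 14.0% of 21372 genes. Replicates 2 and 4 held those of Myh11 and Cnn1, as for 22.1% of genes. Replicates 1 and 4 were on different slides. The gain of Acta2 over Myh11 was tested within each array, where the overall brightness cancels. The difference of their log2 fold changes was 0.63 (exact two-sided permutation p = 0.457, adjusted p = 0.457 over 4 pairs of members), with per-array differences of 0.698 to 3.41 in allopurinol and 0.811 to 2.49 in control. With the mean of the 2 Myh11 probes, which disagreed in direction, this difference was 1.71 (same permutation test, adjusted p = 0.2).

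**Figure D2:**
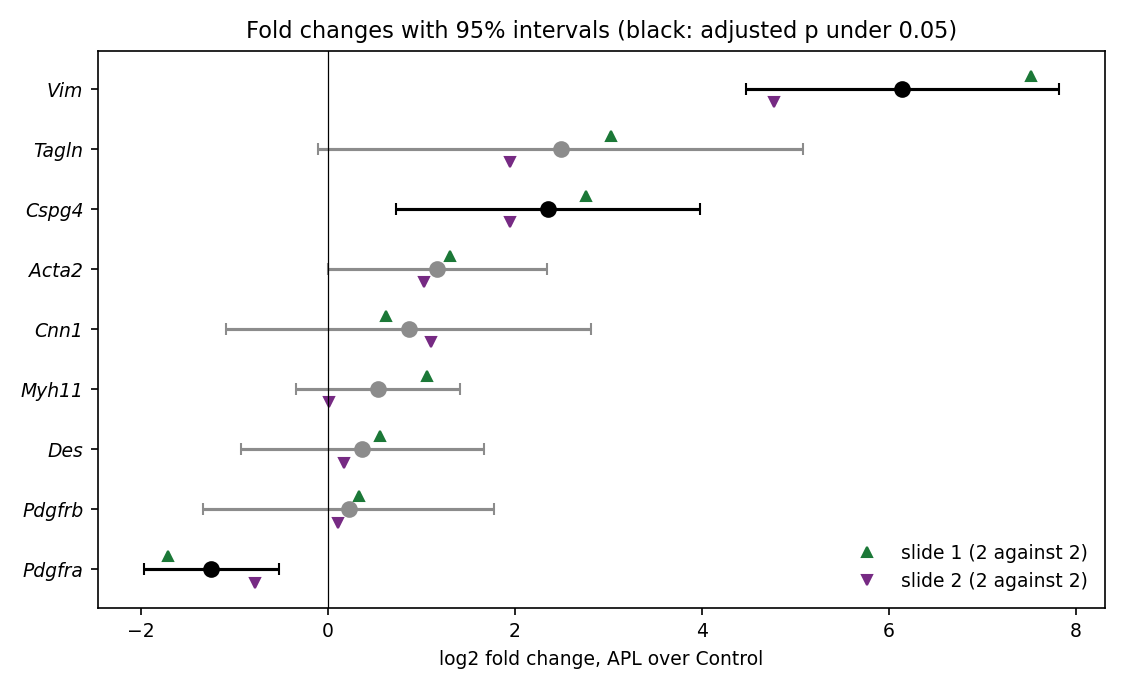
Log2 fold change, allopurinol over control, of the 9 tested members (circles, with 95% intervals from limma, black where the adjusted p is under 0.05), with the value on slide 1 as upward and on slide 2 as downward triangles, each 2 arrays against 2. Vim, Cspg4 and Pdgfra have intervals away from 0, and the interval of Acta2 ends at -0.01. Both slides lie on the same side of 0 for every member shown, called or not.

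Vim, the intermediate filament vimentin of mesenchymal cells, had log2 levels of 3.88, 2.68, 2.43 and 3.37 in allopurinol replicates 1 to 4, against -3.50, -4.98, -1.75 and -1.99 in control replicates 1 to 4. Every allopurinol array lay above every control array, and all 8 values were well above background. Vim rose by 6.14 ± 0.73 on the log2 scale (95% interval 4.47 to 7.82, adjusted p = 0.000832), a fold of 70.7. The slides gave 7.52 and 4.77 (slide 1 and slide 2), with an adjusted p of 0.00136 when the slide was a block, and it passed under all 20 alternatives, at 4.35 to 6.78. The lowest of these values came with normexp background correction, and those without 1 array ran from 5.50 to 6.58.

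Des, the muscle intermediate filament desmin, which in kidney marks smooth muscle, mesangial cells and pericytes, had -1.95, -1.19, -2.24 and -1.96 in allopurinol replicates 1 to 4, against -1.52, -2.74, -3.56 and -0.98 in control replicates 1 to 4. The allopurinol values all lay inside the control range, and the log2 fold change was 0.36 ± 0.56 (95% interval -0.94 to 1.66, adjusted p = 0.671), 0.56 on slide 1 and 0.17 on slide 2 (adjusted p = 0.685 with the slide as a block). It was 0.77 without control replicate 4, -0.09 without control replicate 3 and -0.01 with normexp and quantile normalization. The log2 fold change of Vim exceeded that of Des by 5.78 and that of Acta2 by 4.98. The within-array difference of Vim and Des was 3.87 to 5.83 in allopurinol and -2.24 to 1.81 in control, and that of Vim and Acta2 was 2.72 to 4.09 in allopurinol and -3.02 to -0.03 in control. All allopurinol values were above all control values for both pairs, with an exact permutation p of 0.0286 each, the smallest possible here. The adjusted p was 0.0571 over 4 pairs, which did not pass. At that smallest p, 2 of 4 pairs cannot pass unless another pair reaches it too, so this outcome decides nothing about these 2 pairs.

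Pdgfra, the receptor for PDGF-AA that marks interstitial fibroblasts, had -0.32, -0.68, 0.04 and 0.32 in allopurinol replicates 1 to 4, against 0.88, 1.56, 1.36 and 0.57 in control replicates 1 to 4. Every allopurinol array lay below every control array. Pdgfra fell by 1.25 ± 0.31 on the log2 scale (95% interval -1.97 to -0.53, adjusted p = 0.025), a fold of 2.38, with -1.72 on slide 1 and -0.78 on slide 2 (adjusted p = 0.0351 with the slide as a block). Among the alternatives that ended the call were fits without allopurinol replicate 1 (-1.20, adjusted p = 0.0593) or 2 (-1.08, 0.0621) or control replicate 2 (-1.09, 0.0613) or 3 (-1.16, 0.0578), normexp with the 75th percentile (-0.94, 0.0883) and no scaling between arrays (-0.61, 0.204). In bulk RNA, fewer cells of a type and less RNA per cell cannot be told apart.

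Pdgfrb, the receptor for PDGF-BB on pericytes, mesangial cells and fibroblasts, had 0.54, -2.32, -0.52 and -0.06 in allopurinol replicates 1 to 4, against -0.58, -1.86, -1.06 and 0.26 in control replicates 1 to 4. The groups overlapped, and allopurinol replicate 2 was the lowest of all 8 arrays. The log2 fold change was 0.22 ± 0.68 (95% interval -1.34 to 1.78, adjusted p = 0.836), 0.33 on slide 1 and 0.11 on slide 2 (adjusted p = 0.834 with the slide as a block). It was 0.80 without allopurinol replicate 2, 0.58 without control replicate 4, -0.13 without control replicate 2 and -0.16 without allopurinol replicate 1. The log2 fold change of Pdgfrb minus that of Pdgfra was 1.47, from within-array differences of -1.64 to 0.86 in allopurinol and -3.41 to -0.31 in control, and these overlapped (exact permutation p = 0.2, adjusted p = 0.267 over 4 pairs).

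Of the PDGF ligands, Pdgfa had a log2 fold change of 0.71 ± 0.34 (adjusted p = 0.169), Pdgfb of 2.22 ± 0.81 (adjusted p = 0.0839) and Pdgfc of 0.63 ± 0.42 (adjusted p = 0.312). None passed by limma, with 1 of 3 (Pdgfb) under 0.05 unadjusted, although a second Pdgfb probe rose by 2.69 with an adjusted p of 0.0172 in the fit over all kept probes. Pdgfd was too dim to be tested.

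Cspg4, the surface proteoglycan NG2 of pericytes, had log2 levels of -0.59, -1.14, -1.39 and -1.89 in allopurinol replicates 1 to 4, against -3.36, -3.89, -1.78 and -5.40 in control replicates 1 to 4. The groups overlapped, since control replicate 3 lay above allopurinol replicate 4. Cspg4 rose by 2.35 ± 0.71 on the log2 scale (95% interval 0.73 to 3.98, adjusted p = 0.0458), a fold of 5.11, with 2.76 on slide 1 and 1.95 on slide 2. This call was close to the threshold: among other alternatives, it was lost with the slide as a block (adjusted p = 0.0631), with quantile normalization (2.15, 0.0506), without a detection filter (0.0713) and with normexp and the 75th percentile (1.14, 0.118). Leaving out control replicate 3 gave 2.96 (adjusted p = 0.0102), and leaving out any other single array, of either group, ended the call, with values of 1.76 to 2.57 and adjusted p of 0.0667 to 0.105. With normexp and quantile normalization it was 0.83 (adjusted p = 0.0462).

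Fap, a serine protease of activated fibroblasts, was well above background in allopurinol replicates 2, 3 and 4, at log2 levels of -5.27, -6.51 and -4.03, and not in replicate 1, which stood at the floor of -7.64. All 4 control arrays stood at that floor and were not well above background. The allopurinol mean was -5.86 with replicate 1 set at the floor. The lowest signals well above background on the control arrays had a mean of -5.96, a ratio of 1.07. This ratio is no lower bound on the fold, because the measured signal of allopurinol replicate 1 lay below the floor. Fap was well above background on too few arrays for the test, and in a limma fit without that filter its adjusted p was 0.144 over 26633 genes.

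**Figure D3:**
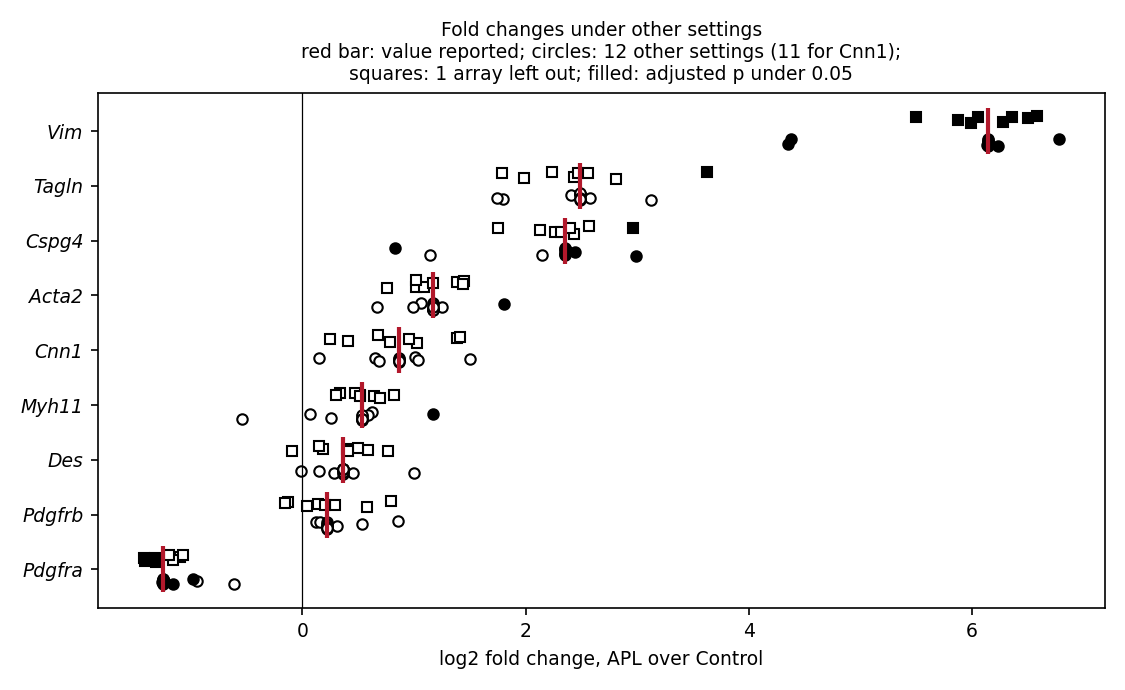
Log2 fold change of the 9 tested members under other settings, with the reported value as a red bar, other scalings, filters, probe rules and blocks as circles, and fits without 1 array as squares, filled where the adjusted p is under 0.05. All Vim points are filled, Cspg4 and Pdgfra are a mix of filled and open points, and Tagln has 1 filled point at 3.62.

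Among other genes of smooth muscle contraction and its control, 15 of 20 listed genes were tested, and limma called 3 higher and 0 lower (5 higher and 2 lower at an unadjusted p under 0.05). This count and those of the lists that follow stand against 11.9% of all genes called higher and 11.5% called lower. Flna, filamin A, which crosslinks actin, rose by 4.77 ± 0.65 (adjusted p = 0.00161), and by 2.28 with normexp and quantile normalization. Tpm1, a tropomyosin that lies along the actin filament, rose by 3.01 ± 0.29 (adjusted p = 0.00033), and its second probe by 3.37. The third, Cald1, caldesmon, rose by 2.49 ± 0.28 (adjusted p = 0.000704). All 3 have forms in cells other than muscle, and each passed under all 20 alternatives. The median of the list was 0.57, and 10 of the 15 values were positive. Smtn had -1.13 ± 0.39 with groups that did not overlap (limma adjusted p = 0.0732). The other negative values, none called, were Pln (-0.86), Mylk (-0.40), Myocd (-0.34) and Actg2 (-0.22).

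Actin isoforms other than Acta2 gave no call by limma, and 0 of 5 had an unadjusted p under 0.05. Acta1, of skeletal muscle, had a log2 fold change of -0.13 ± 0.21 (adjusted p = 0.69), Actc1, of heart, -0.37 ± 0.23 (adjusted p = 0.283), and Actg2, of enteric smooth muscle, -0.22 ± 0.57 (adjusted p = 0.808). The nonmuscle isoforms Actb and Actg1 had -0.09 ± 0.27 (adjusted p = 0.843) and 0.58 ± 0.26 (adjusted p = 0.153). Actg1 passed without scaling between arrays (1.22, adjusted p = 0.0249), where the signs of Acta1, Actc1, Actg2 and Actb turned positive. These genes are near copies of each other in the coding region, and probe letters were not used here, so shared hybridisation between them and Acta2 was not tested.

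Of 9 other intermediate filament genes, 3 were called higher and 1 lower. Krt18, a keratin of simple epithelia, rose by 4.86 ± 1.32 (adjusted p = 0.0327, well above background on 3 of 4 control arrays, lost in 5 of 8 fits without 1 array) and Nes, nestin, a partner of vimentin and desmin in progenitor cells and podocytes, rose by 2.98 ± 0.30 (adjusted p = 0.000411), while a second Nes probe gave 0.94 (adjusted p = 0.125). Lmna, a nuclear lamin, rose by 1.47 ± 0.29 (adjusted p = 0.0124), on 3 allopurinol arrays because its spot in replicate 2 was set aside as non-uniform, and its second probe gave 0.77 (adjusted p = 0.0665). Gfap, the astrocyte filament, had a fitted log2 fold change of -0.62 ± 0.19 (adjusted p = 0.0457). Its probe was dim, at mean log2 levels of -6.30 in allopurinol and -5.68 in control. The lowest signals well above background were at -6.76 to -6.23 on the allopurinol arrays and -6.05 to -5.85 on the control arrays. Gfap lost its call in 14 of 20 alternatives, 7 of them fits without 1 array. It was -0.02 with a higher floor of 0.02. Its sign turned without scaling between arrays (0.02) and with normexp and the 75th percentile.

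Of 17 pericyte and mural markers 14 were tested and 0 were called by limma, with 0 higher and 3 lower at an unadjusted p under 0.05. The 3 probes of Abcc9, a subunit of potassium channels in pericytes, differed: the one used gave -2.85 (adjusted p = 0.0904), and in the fit over all kept probes another gave -0.89 (adjusted p = 0.0828) and the third -4.96 (adjusted p = 0.00358), the last from a probe well above background on 2 allopurinol arrays. The median of the list was -0.46, and 3 of 14 values were positive. Their summed level was 8.81 to 10.8 times the 75th percentile on the allopurinol arrays and 11.7 to 13.5 times on the control arrays. Of 14 tested fibroblast markers from a list of 20, 6 were called higher and 0 lower by limma (6 higher and 1 lower unadjusted), with a median of 1.32. The difference between these lists was not tested. Cthrc1 was well above background on 2 of 4 control arrays and S100a4 on 3, so their fitted folds include control values that are not. S100a4, a calcium-binding protein also made by leukocytes, rose by 5.09 ± 1.11 (adjusted p = 0.0146), and Cthrc1, a collagen triple helix repeat protein of activated fibroblasts, had a fitted log2 fold change of 4.20 ± 0.86 (adjusted p = 0.011), with 0.97 under normexp and quantile normalization (adjusted p = 0.0925). The others were Mfap4, a microfibril protein (3.94 ± 0.62), Pi16 (2.39 ± 0.67), and the collagen chains Col1a1 (2.12 ± 0.38) and Col3a1 (2.01 ± 0.44). A second Col1a1 probe gave 2.46 (adjusted p = 0.0763 in the fit over all kept probes). Col1a2, another collagen chain of the list, was not called (0.62 ± 0.62, limma adjusted p = 0.50). Pi16 lost its call in 7 of 8 fits without 1 array, and its second probe gave -0.33. The summed level of this list was 36.7 to 98.4 in allopurinol and 15.3 to 17.3 in control.

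**Figure D4:**
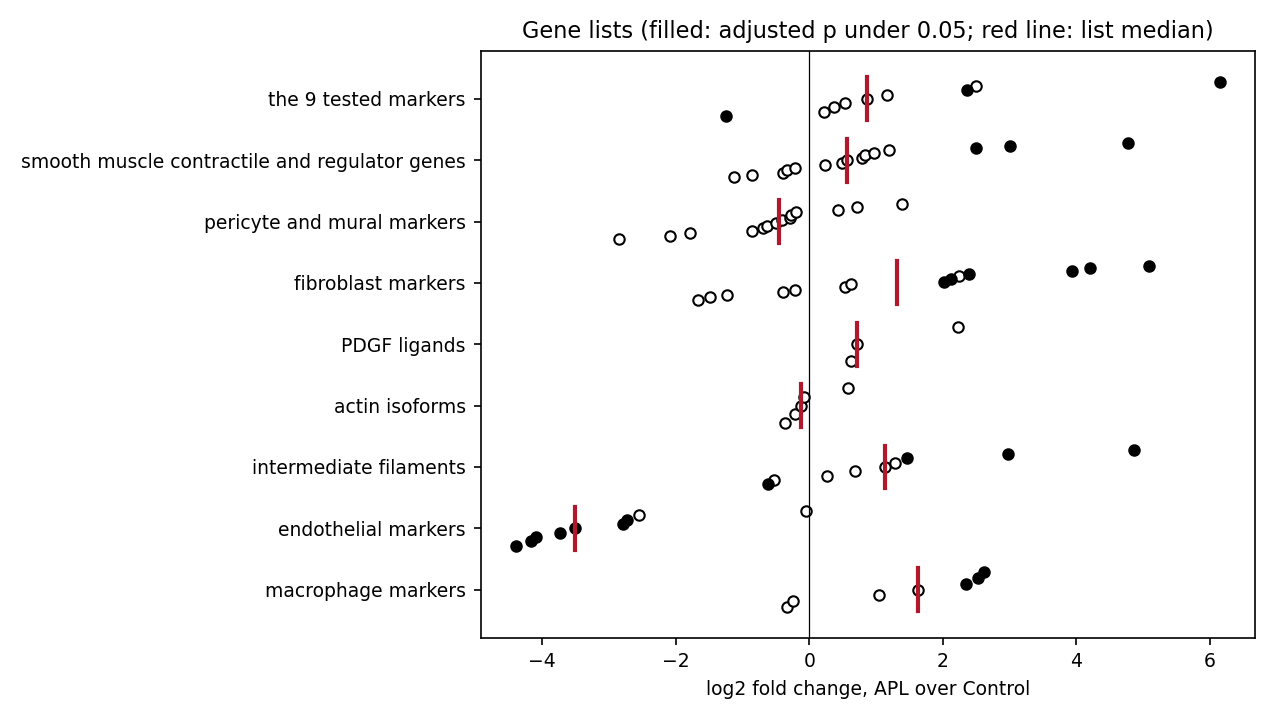
Log2 fold change, allopurinol over control, of the tested genes of each list (1 point per gene, filled where the adjusted p is under 0.05, red line at the list median). All 9 endothelial markers lie below 0 with a median of -3.50, pericyte and mural markers centre at -0.46 with no filled point, and fibroblast markers centre at 1.32.

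Markers of other cells were counted in the same way. Of the endothelial markers, 7 of 9 tested genes were lower and 0 higher by limma (8 and 0 unadjusted), with a summed level of 1.14 to 1.88 in allopurinol and 13 to 17.9 in control. Plvap, of fenestrated endothelium, fell by 4.40 ± 0.36, and Emcn, endomucin, had a fitted value of -4.18 that is no exact fold, since it was well above background on 1 of 4 allopurinol arrays and 2 others stood at the floor. Emcn lost its call in 5 of 8 fits without 1 array. With normexp and the 75th percentile Emcn stood at -0.42. Of 7 tested macrophage markers 3 rose and 0 fell (4 and 0 unadjusted), among them Cd68 (2.62 ± 0.36) and C1qc (2.52 ± 0.59, adjusted p = 0.0555 without allopurinol replicate 4), with a summed level of 12 to 15.7 in allopurinol and 3.13 to 9.67 in control. Injured tubule markers rose in 5 of 7 genes, to a summed level of 239 to 382 in allopurinol, against 26.6 to 47.4 in control, led by Spp1, osteopontin (10.05 ± 1.01, well above background on 3 of 4 control arrays), and Lcn2, lipocalin 2 (7.58 ± 0.32). Proximal tubule markers fell in 5 of 7 and rose in 1, with a sum of 39 to 47.3 in allopurinol and 384 to 454 in control, and Slc22a6, an organic anion transporter, and Miox, an inositol oxygenase, changed most (-6.51 ± 0.37 and -5.64 ± 0.29). Of 7 podocyte markers 2 were higher and 1 lower, the phosphatase Ptpro (2.94 ± 0.52) and podocalyxin Podxl (-1.99 ± 0.33) changing most. Of 7 distal tubule and collecting duct markers Aqp2, a water channel, was higher (1.93 ± 0.48) and Umod, uromodulin, lower (-3.85 ± 1.06), with the call lost in 4 of 8 and 6 of 8 fits without 1 array. The part of these cells in the values of Vim, Cspg4 and Pdgfra was not tested.

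The genes whose levels ran most like a member over the 8 arrays were sought among 10367 genes with a symbol that were well above background on every array, by the root mean square difference of mean-centred log2 levels. Nearest to Acta2 were Slpi, a secreted protease inhibitor, at 0.284, Rgs10, a regulator of G protein signalling, at 0.368, and Pear1, a platelet and endothelial receptor, at 0.397, where the median gene differed by 1.12. Nearest to Vim were Anxa1, a calcium-dependent phospholipid-binding protein, at 0.948, Lgals3, galectin-3, at 1.001, and Slc25a24, a mitochondrial ATP carrier, at 1.01, against a median of 3.31. Their log2 fold changes were 5.55, 5.68 and 5.42, against 6.14 for Vim, a closeness that follows from a search over both groups. The mean-centred levels of Vim itself had a root mean square of 3.23, so its median of 3.31 mostly reflects the size of its own change. Nearest to Pdgfra were Gstp1, a glutathione transferase, at 0.192, Ndufs3, a subunit of respiratory complex I, at 0.198, and Pla2g2f, a secreted phospholipase, at 0.206, against 0.945. Nearest to Pdgfrb were Pptc7 at 0.509, P2rx4, an ATP-gated channel, at 0.520, and Acap2 at 0.541, against 1.15. The mean-centred levels of Acta2, Pdgfra and Pdgfrb had root mean squares of 0.899, 0.733 and 0.937. The medians for these genes too reflect their own spread in large part.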

How the data were processed

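Per the labels' protocols, kidney RNA was purified on RNeasy Mini columns and given a Cy3 label, with a kit whose name is that of a DNA labelling kit. Per the file headers, the arrays (design 028282, header build rn4) had a scan step of 5 micrometres, and Agilent Feature Extraction 10.5.1.1 quantified them (protocol GE1_105_Dec08). The deposited scanner files hold linear intensity values per spot: a processed signal with background and spatial trend removed, and the raw spot and local background signals. A deposited table holds the authors' log2 values. Of these, 93.7% lay within 0.01 of log2 of the processed signal over the array's 75th percentile, centred per probe on its median over the 8 arrays (r 0.9992 to 0.9997 per array); column medians ran from -0.135 to 0.0759. It was an alternative.

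Here, non-uniform spots (2 to 64 per array) were dropped, spots of a probe were averaged, signals were scaled to each array's 75th percentile, floored at 0.005 and log2 taken. Probes well above background on at least 4 of 8 arrays were kept (24339 of 30367), none saturated, and the probe with the highest mean stood for its gene. Symbols came from RefSeq (GRCr8) by unversioned accession (18643 probes with 1 symbol, 11724 unnamed here); no coordinates of the array are given. The group comparison used limma 3.58.1 (R 4.3.3), tested on simulated data, and pairs of members with exact permutations in Python 3.11.15. The members and gene lists were chosen with earlier results of these data known. Genes were named by rule: all members, the 2 largest called changes of each list, lists of up to 5 genes in full, and the 3 nearest profiles of Acta2, Vim, Pdgfra and Pdgfrb. Abcc9, Cald1, Lmna, Gfap, Mfap4, Pi16, Col1a1, Col1a2 and Col3a1 were added after their values were seen. Alternatives covered scaling, background correction, the floor, the filter, the probe rule, blocks, the deposited table and each array left out. The number of arrays limits the precision.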

Additional observations from a re-analysis of the deposited data

How the results depend on the processing

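Over 54 of the named genes and 20 alternatives, 950 values kept direction and side of the threshold, 85 lost their call, 14 gained one and 25 turned sign. Vim passed throughout. Without scaling between arrays, where the median of all genes stood at 0.60, 4 members were called higher (Acta2, Vim, Myh11 and Cspg4) and 0 lower by limma, and 5883 genes were higher and 1143 lower. With normexp and the 75th percentile, where that median was 0.36, 1 member was higher and 0 lower, and 2061 genes were called, 1069 higher and 992 lower. Quantile normalization, no detection filter and the slide block each left 1 member called higher. With replicate numbers as a block, 1 member was higher and 0 lower (adjusted p = 0.0859 for Pdgfra and 0.0535 for Cspg4), and 3258 genes were called, 1642 higher and 1616 lower. No pairing by these numbers was seen: same-number correlations of deviations ran from -0.0157 to 0.0482, and different-number ones from -0.0833 to 0.0912. With 4 arrays in each group this cannot exclude a pairing. Without 1 array, members called higher ranged from 1 to 2 and lower from 0 to 1, and genes called higher from 1606 (without allopurinol replicate 4) to 2204 (without control replicate 3).

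Signs that turned were of values that had not passed, Gfap and Pla2g2f excepted. Without scaling, log2 fold changes were 0.42 for Actg2, 0.51 for Acta1, 0.27 for Actc1, 0.55 for Actb and 0.020 for Gfap. With normexp and the 75th percentile they were 0.56 for Actg2, 0.10 for Actc1, 0.51 for Gfap and 0.33 for Pla2g2f. With normexp and quantile normalization they were -0.012 for Des, 0.061 for Actb and -0.0011 for Acap2. Actb was 0.064 with quantile normalization and 0.0028 with the percentile over probes detected on all arrays. The mean of the kept probes gave -0.54 for Myh11 and 0.14 for Actg2. Without 1 array, Des ranged from -0.089 to 0.77, Pdgfrb from -0.16 to 0.80, Actg2 from -0.59 to 0.22, Actb from -0.30 to 0.047 and Acap2 from -0.30 to 0.55. The cause was not tested. Cnn1 was well above background on 4 of 8 arrays and Fap on 3, which limits their values.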
